A study of Mus musculus with 6 samples.

Results

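The nuclear RNA exosome and its adaptors were represented by 10 genes of the deposited gene table: Exosc2, Exosc3, Exosc10, Dis3, Skiv2l2, Rbm7, Zcchc8, Zfc3h1, Mphosph6 and C1d. They were chosen by name as nuclear decay machinery that can act on readthrough RNA, with earlier results of these data known. All 10 were found among the 24421 listed genes and passed the filter on low counts. RNA came from 3T3-L1, a mouse embryonic fibroblast line used as a preadipocyte model, with 3 wild-type libraries (no treatment) and 3 libraries of a Ube3d knockout, all from undifferentiated cells in log-phase growth. The sample titles call the libraries biological replicates. No label tells if the knockout cells came from a single clone or what part of Ube3d was removed. P-values therefore measure the spread between these libraries only.

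The RNA exosome degrades and trims RNA from its 3′ end in the nucleus and the cytoplasm. Its ring-shaped core has no catalytic activity of its own in mammals and relies on attached nucleases, DIS3 and, in the nucleus, EXOSC10. In the nucleus the helicase MTR4 unwinds RNA for the exosome and is brought to its targets by adaptor complexes: NEXT, formed with RBM7 and ZCCHC8, acts on short unprocessed transcripts such as promoter upstream transcripts, and PAXT, formed with ZFC3H1, acts on polyadenylated nuclear RNA. UBE3D has been described as binding CPSF73, which makes the cut that frees a new transcript before its poly(A) tail is added, and RNA that escapes this cut can run on downstream of the gene.

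Values per gene are CPM, a gene's counts per 1000000 counts of its library after TMM scaling, and a gene is called higher or lower at an edgeR adjusted p under 0.05 over all 12947 tested genes. Ube3d, listed as Ube2cbp, was at 6.21, 7.71 and 6.46 CPM in wild type and 2.20, 1.58 and 1.89 CPM in the knockout, a 3.62-fold decrease (edgeR adjusted p = 6.6e-18). Libraries held between 23767181 and 29389480 gene counts. All 8 fibroblast markers were tested, and 6 were called lower and 1 higher, against 31.2% and 30.3% of all tested genes. The markers summed to 10535 to 10895 CPM in wild type and to 9076 to 9299 CPM in the knockout. Their median log2 change was −0.55, with Col1a1 at −1.18 and Dlk1, the marker called higher, at 1.12. No epithelial, endothelial or mature adipocyte marker reached the count filter, and the highest of them was Cdh5 at a mean of 0.270 CPM, with Epcam and Lep at 0. The 4 macrophage markers summed to 4.60 to 6.16 CPM in wild type and to 6.45 to 7.26 CPM in the knockout, with Adgre1 at 0. Of these, Cd68 was called higher (log2 0.71, edgeR adjusted p = 5.2e-04), Csf1r was not called and Ptprc did not reach the count filter, and their part in the results was not tested. Reads downstream of genes, counted separately from the gene counts, equalled 2.43%, 2.59% and 2.51% of the gene counts in the wild-type libraries. In those of the knockout they equalled 3.15%, 3.01% and 2.96%, over 1693 regions. The groups did not overlap in this percentage (two-sided exact permutation p = 0.10, the smallest that 3 against 3 libraries allow). The gene counts include the ribosomal RNA precursor gene Rn45s, which was called higher (log2 0.31, edgeR adjusted p = 0.047).

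Most of the 10 chosen genes were slightly lower in the knockout. Of the other 7 subunits of the exosome core 1 was called lower, against 31.2% of all tested genes. A fit that centred each chromosome on its own median called 4 of these 7 subunits and 7 of the 10 genes lower. In that fit 29.3% of tested genes were called lower. Of the 10 genes, 7 were called lower, 2 higher, and 1, Rbm7, did not pass the threshold. Among all tested genes 31.2% were lower, 30.3% higher and 61.4% called in either direction, so that a call alone sets no gene apart here. The median log2 change of the 10 genes was −0.21, against 0.004 over all tested genes. As the 10 genes were chosen with earlier results known, their comparison with all tested genes is descriptive only. The sizes ranged from 0.08 to 0.31 in absolute log2 units, with a median of 0.21 that lies close to the 0.22 of all tested genes. Every knockout library lay below every wild-type library for 6 of the 10 genes, against 32.5% of tested genes, and above for 1 gene, against 31.8% (64.3% in either direction). Fewer cells expressing a gene and less RNA per cell cannot be told apart in these bulk libraries.

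**Figure D1:**
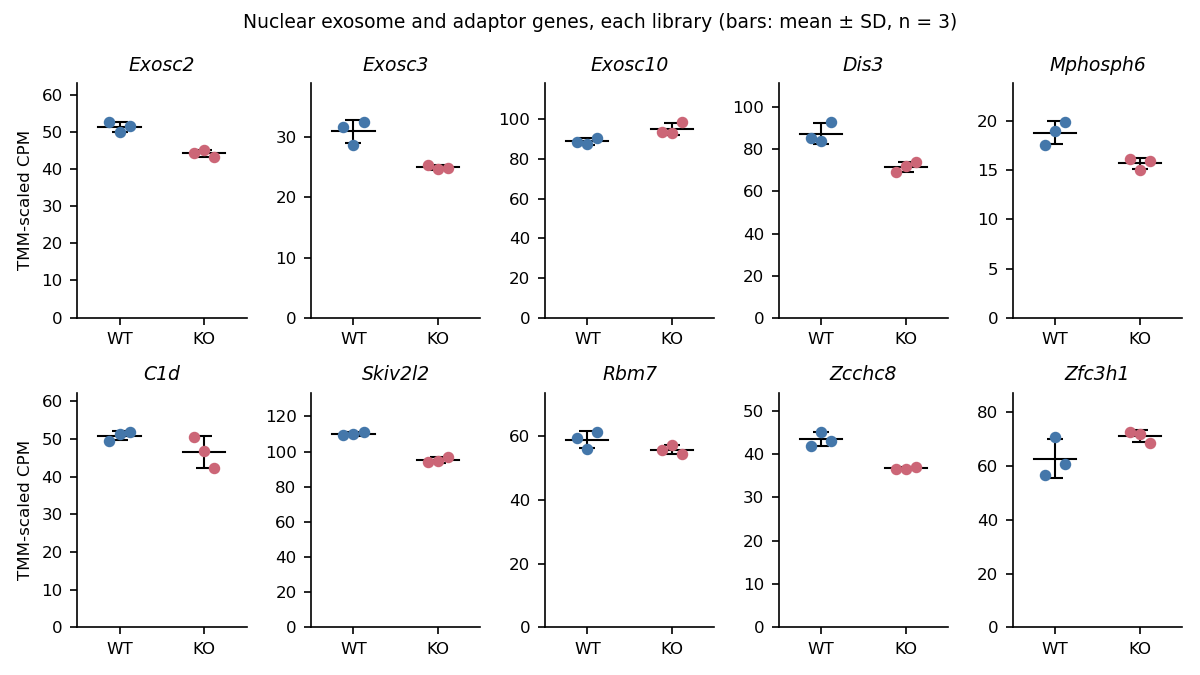
Level of each of the 10 genes in each library, in TMM-scaled CPM on axes that start at 0; blue points are wild type (WT), red points the Ube3d knockout (KO), and bars show the mean ± SD of 3 libraries. Exosc2, Exosc3, Dis3, Mphosph6, Skiv2l2 and Zcchc8 have all knockout points below all wild-type points, Exosc10 has them above, and C1d, Rbm7 and Zfc3h1 overlap.

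The promoters of the genes are shown because several genes were called lower and because a long sequence word was found in more than a single member. Shared control of the genes was not tested. The 250 bases upstream of the RefSeq start (GRCm38.p6) were found for all 10 genes, with Skiv2l2 under its newer symbol Mtrex, and the most upstream window was used for Exosc10, which has 2. Searched on both strands were a ZNF143/THAP11-type word (its matches are the capitals in the first 3 sequences), CGGAAG (the ETS core), GGGCGG (a GC box), GCGCNTGCG (an NRF1-type word), CCAAT and TATAAA. The words were chosen after the sequences had been seen, and a match is a description of letters only. The ZNF143/THAP11-type word stood in the windows of Dis3, Zcchc8 and Zfc3h1, that is 3 of 10, against 1.35% of the 32851 windows in the table and 3.07% of the 12327 windows of tested genes. These 3 genes did not move in a common direction, as Dis3 and Zcchc8 were lower and Zfc3h1 was higher. Zcchc8 holds the word 2 times, on opposite strands. The window of Dis3 lies within an exon of its divergent neighbour Pibf1, so only 30 bases are given. Of the 250 bases of the Rbm7 window, 238 lie in exons of Gm5617. The C1d window shares 41 bases with deposited exons of C1d itself, as RefSeq and deposited starts can differ. Both windows were searched in full. Capitals mark this word or its reverse complement in these 3 genes, at chr5:123721045-123721294 (minus strand), chr10:115384709-115384958 (plus strand) and chr14:99099859-99099888 (minus strand).
Zcchc8: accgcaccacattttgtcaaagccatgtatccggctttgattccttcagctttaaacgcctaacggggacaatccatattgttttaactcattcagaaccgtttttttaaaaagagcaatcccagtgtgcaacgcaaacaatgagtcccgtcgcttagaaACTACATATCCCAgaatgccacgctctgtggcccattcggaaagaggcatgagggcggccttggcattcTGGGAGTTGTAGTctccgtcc
Zfc3h1: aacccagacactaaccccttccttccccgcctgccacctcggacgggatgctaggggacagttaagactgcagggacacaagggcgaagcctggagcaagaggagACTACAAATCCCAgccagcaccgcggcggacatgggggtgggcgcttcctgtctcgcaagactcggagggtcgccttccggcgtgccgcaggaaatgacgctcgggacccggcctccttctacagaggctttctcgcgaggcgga
Dis3: gtgcaggcTGGGAGCTGTAGTccagaggaa

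Exosc3 and Exosc10 lie on the same chromosome and were called in opposite directions, and their windows share none of the 6 words. Exosc3 (chr4:45320617-45320866, minus strand) carries CGGAAG 2 times in tandem, in capitals, within the last 20 bases before its RefSeq start. This word stood in 13.6% of all windows and 24.5% of those of tested genes. Exosc3 also carries GGGCGG 1 time, at 30 to 25 bases before the RefSeq start. The deposited exons of Exosc3 begin at chr4:45320603 on this strand, so the window does not adjoin them. Exosc10 (chr4:148558169-148558418, plus strand) carries GCGCNTGCG, in capitals, a word in 5.19% of all windows and 10.7% of those of tested genes.
Exosc3: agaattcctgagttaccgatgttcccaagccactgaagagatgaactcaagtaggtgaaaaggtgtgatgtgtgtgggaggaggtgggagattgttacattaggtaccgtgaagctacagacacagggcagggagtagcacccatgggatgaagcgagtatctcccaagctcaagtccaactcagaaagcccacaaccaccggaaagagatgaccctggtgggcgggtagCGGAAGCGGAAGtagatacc
Exosc10: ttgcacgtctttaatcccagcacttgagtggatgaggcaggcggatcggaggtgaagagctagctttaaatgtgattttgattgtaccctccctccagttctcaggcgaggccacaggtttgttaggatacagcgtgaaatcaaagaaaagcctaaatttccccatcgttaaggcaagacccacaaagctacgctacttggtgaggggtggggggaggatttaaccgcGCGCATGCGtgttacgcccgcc

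Of the other words, CGGAAG stood in 4 of 10 windows (Exosc3, Dis3, Rbm7 and Zfc3h1) and GGGCGG in 5 (Exosc3, Dis3, Zcchc8, Mphosph6 and C1d), against 32.7% of all windows and 57.1% of those of tested genes. GCGCNTGCG stood in 3 (Exosc10, Rbm7 and C1d) and CCAAT in 2 (Exosc2 and Dis3), against 33.8% and 35.5%. TATAAA stood in none of the 10, against 12.4% of all windows and 6.55% of those of tested genes.

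Both members that encode cap subunits of the core were lower. EXOSC3 is a cap subunit that sits at the entrance of the ring and contacts RNA on its way to the nucleases. Exosc3 (chr4:45316630-45320603, minus strand) was at 31.6, 28.8 and 32.5 CPM in wild type and 25.4, 24.7 and 24.8 CPM in the knockout. The knockout libraries lay close together and below all wild-type libraries. The level was 19.1% lower (log2 −0.31, SE 0.06, edgeR adjusted p = 6.3e-06), the largest change among the 10 genes, although 36.9% of tested genes changed at least as much. EXOSC2 is another cap subunit, with an RNA-binding fold related to that of EXOSC3. Exosc2 (chr2:31670737-31681307, plus strand) was at 52.6, 50.0 and 51.5 CPM in wild type and 44.3, 45.1 and 43.2 CPM in the knockout, 13.9% lower (log2 −0.22, SE 0.05, edgeR adjusted p = 4.6e-05). The groups did not overlap, but chromosome 2 as a whole was lower, with a median log2 change of −0.24 over its 1024 tested genes and 58.4% of them called lower. The 20 tested genes nearest to Exosc2 had a median of −0.25. Relative to the median of chromosome 2, Exosc2 changed by 0.02 (edgeR adjusted p = 0.67).

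The 2 nucleases of the nuclear exosome were called in opposite directions. DIS3 is the processive exonuclease at the bottom of the ring and also cuts RNA internally. Dis3 (chr14:99076634-99099770, minus strand) was at 85.6, 83.9 and 92.9 CPM in wild type and 69.4, 71.9 and 74.1 CPM in the knockout. No knockout library came near the lowest wild-type library, and the level was 17.9% lower (log2 −0.28, SE 0.04, edgeR adjusted p = 5.3e-09). The 20 tested genes nearest to Dis3 had a median of −0.26, close to its own change, and their part in it was not tested. Its exons share 325 bases with those of Pibf1 on the other strand, which was at 16.0 ± 0.9 CPM in wild type and 15.4 ± 0.3 in the knockout (edgeR adjusted p = 0.51). The sources used here do not give the strand setting of the counting, so reads in the shared bases cannot be assigned.

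EXOSC10, the distributive exonuclease of the nuclear form, sits above the cap and trims the ends of ribosomal and small nucleolar RNA. Exosc10 (chr4:148558427-148582400, plus strand) was at 88.5, 87.5 and 90.6 CPM in wild type and 93.4, 93.0 and 98.6 CPM in the knockout, 6.93% higher (log2 0.10, SE 0.04, edgeR adjusted p = 0.020). The groups did not overlap, yet the gap between them was small. The call was lost without knockout replicate 3 (log2 0.07, edgeR adjusted p = 0.17), without wild-type replicate 1 (0.09, adjusted p = 0.055) or without wild-type replicate 2 (0.08, adjusted p = 0.080). Its start lies 742 bases after the end of Mtor on the same strand. Mtor, which encodes a growth-control kinase, was also higher, from 69.8 ± 2.3 to 82.8 ± 0.9 CPM (log2 0.25, SE 0.04, edgeR adjusted p = 1.3e-07), and its part in the Exosc10 counts was not tested.

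The ratio of the 2 nucleases was higher in each knockout library than in any wild-type library. Per kilobase of exon, Exosc10 stood at 1.35, 1.36 and 1.27 times Dis3 in the wild-type libraries and at 1.76, 1.69 and 1.74 times in the knockout libraries. This and 6 other ratios between members were formed after the values had been seen and carry no test. The groups did not overlap in 6 of the 7 ratios, from which nothing is read, since most pair members with different changes and 64.3% of single tested genes do not overlap either. The ratio of Exosc3 to Exosc2, the 2 members that encode cap subunits, was the exception, at 0.94 ± 0.04 in wild type and 0.89 ± 0.02 in the knockout.

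The cofactors that tie EXOSC10 and MTR4 to the ring were lower while Exosc10 was not. MPHOSPH6 is a small protein that helps anchor MTR4 to the exosome. Mphosph6 (chr8:117791645-117801929, minus strand) was at 17.6, 19.0 and 19.9 CPM in wild type and 16.2, 15.1 and 15.9 CPM in the knockout, 16.6% lower (log2 −0.26, SE 0.07, edgeR adjusted p = 0.0011). The groups did not overlap, and wild-type replicate 1 lay closest to the knockout. C1D binds EXOSC10 and stabilises it. C1d (chr11:17257618-17269176, plus strand) was at 49.6, 51.2 and 51.9 CPM in wild type and 50.6, 46.8 and 42.3 CPM in the knockout, 8.77% lower (log2 −0.13, SE 0.05, edgeR adjusted p = 0.016). Knockout replicate 1 lay inside the wild-type range, and the knockout libraries were spread more widely than those of wild type. Without knockout replicate 3 the C1d change was −0.07 (edgeR adjusted p = 0.27), and without wild-type replicate 3 it was −0.12 (adjusted p = 0.052). Per kilobase, Mphosph6 stood at 0.57 ± 0.03 of Exosc10 in wild type and 0.45 ± 0.02 in the knockout, and C1d at 0.55 ± 0.01 and 0.47 ± 0.06.

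**Figure D2:**
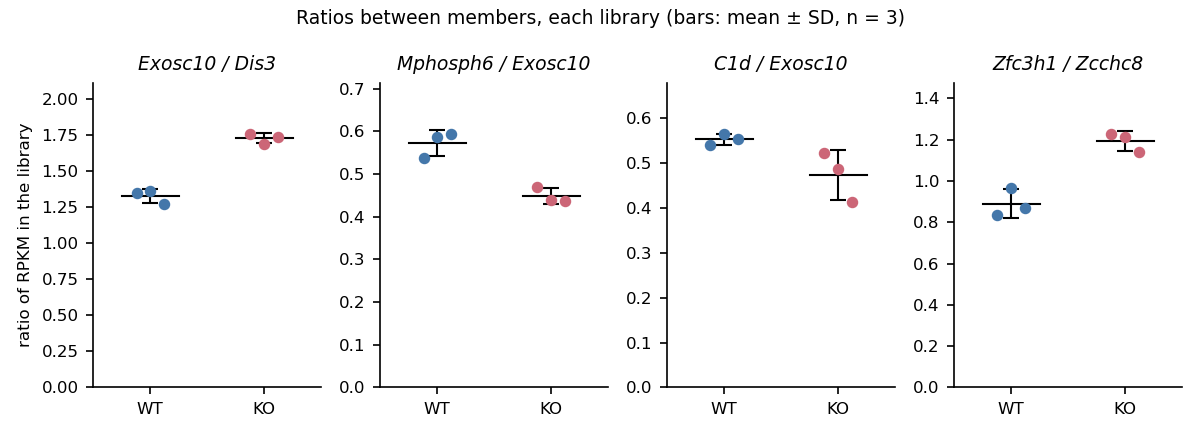
Ratios between members in each library, formed from CPM per kilobase of exon (RPKM), on axes that start at 0; blue is wild type, red the Ube3d knockout, and bars show the mean ± SD of 3 libraries. The Exosc10 to Dis3 and Zfc3h1 to Zcchc8 ratios are higher in all knockout libraries, and the Mphosph6 to Exosc10 and C1d to Exosc10 ratios are lower.

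The helicase and the NEXT scaffold were lower. MTR4, the helicase shared by all nuclear adaptor complexes, is encoded by Skiv2l2 (chr13:112867780-112927380, minus strand). It was at 109.2, 109.8 and 111.2 CPM in wild type and 93.9, 94.5 and 97.0 CPM in the knockout. The wild-type libraries were nearly equal and all above the knockout, and the level was 13.6% lower (log2 −0.21, SE 0.04, edgeR adjusted p = 3.8e-07). Its exons share 115 bases with the lipid phosphatase gene Ppap2a on the other strand, which was also lower (log2 −0.46, edgeR adjusted p = 1.2e-10). Dhx29, a helicase gene of translation initiation that starts 413 bases away in the divergent direction, was higher (log2 0.24, SE 0.04, edgeR adjusted p = 4.1e-07), so that these neighbouring starts went with opposite changes.

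ZCCHC8 is the scaffold of NEXT and joins RBM7 to MTR4. Zcchc8 (chr5:123698302-123721044, minus strand) was at 41.9, 45.1 and 43.1 CPM in wild type and 36.5, 36.6 and 37.0 CPM in the knockout, 15.5% lower (log2 −0.24, SE 0.05, edgeR adjusted p = 2.1e-05). The knockout libraries were nearly equal and all below wild type. Its chromosome went the other way, with a median of 0.19 over 804 tested genes, of which 10.7% were lower and 58.1% higher. Relative to that median the change of Zcchc8 was −0.43 (SE 0.05, edgeR adjusted p = 9.8e-12), which turned it from the fourth in size into the largest among the 10 genes. The median of the 20 tested genes nearest to it was also 0.19.

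RBM7, the RNA-binding subunit of NEXT, prefers uridine-rich RNA. Rbm7 (chr9:48488697-48495330, minus strand) was at 59.5, 56.1 and 61.5 CPM in wild type and 55.7, 57.3 and 54.4 CPM in the knockout. The ranges overlapped through wild-type replicate 2, and the gene did not pass the threshold (log2 −0.08, 95% interval −0.17 to 0.01, edgeR adjusted p = 0.11). The interval includes a decrease as large as that of C1d. Without wild-type replicate 2 the change was −0.12 (edgeR adjusted p = 0.028). Per kilobase, Zcchc8 stood at 0.33 ± 0.03 of Rbm7 in wild type and 0.29 ± 0.01 in the knockout.

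The PAXT adaptor was the other gene called higher. ZFC3H1 is a large zinc-finger protein that links MTR4 to the nuclear poly(A) binding protein PABPN1. Zfc3h1 (chr10:115384959-115432771, plus strand) was at 56.7, 70.9 and 60.8 CPM in wild type and 72.7, 72.0 and 68.5 CPM in the knockout. Wild-type replicate 2 lay among the knockout libraries, and the wild-type SD of 7.3 CPM was the widest of the 10 genes. The level was 12.7% higher (log2 0.17, SE 0.06, edgeR adjusted p = 0.022), and it was 0.27 without wild-type replicate 2 (edgeR adjusted p = 3.2e-06). The call was lost without wild-type replicate 1 (0.10, adjusted p = 0.061), wild-type replicate 3 (0.14, adjusted p = 0.17), knockout replicate 1 (0.16, adjusted p = 0.091) or knockout replicate 2 (0.16, adjusted p = 0.071). Thap2, a zinc-finger gene that starts 524 bases away in the divergent direction, rose from 14.8 ± 0.5 to 22.9 ± 1.2 CPM (log2 0.63, SE 0.07, edgeR adjusted p = 2.0e-12). Per kilobase, Zfc3h1 stood at 0.83, 0.97 and 0.87 of Zcchc8 in the wild-type libraries and at 1.23, 1.21 and 1.14 in the knockout. By this measure Zfc3h1 was below Zcchc8 in each wild-type library and above it in each knockout library. The wild-type ranges of both genes overlapped. This order rests on the deposited exon lengths, 6956 bases for Zfc3h1 and 4286 for Zcchc8. In CPM, with no division by length, Zfc3h1 was above Zcchc8 in every library.

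The starts of several members lie beside a start on the other strand. A gene on the other strand started within 1000 bases of 4 of the 10 (Dis3, Skiv2l2, Rbm7 and Zfc3h1), as was the case for 18.3% of 12936 tested genes with a single position. Gm5617, which starts 13 bases from Rbm7, was at 2.72 CPM in wild type and 2.65 CPM in the knockout and, like Rbm7, did not pass the threshold (edgeR adjusted p = 0.83). The pairs included a shared call, at Zfc3h1 and Thap2, opposite calls, at Skiv2l2 and Dhx29, and a call of a single partner, at Dis3 and Pibf1.

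A chromosome-wide shift was set beside each gene because chromosomes 2, 5 and 14, which hold Exosc2, Zcchc8 and Dis3, had median log2 changes of −0.24, 0.19 and −0.11. When each chromosome was centred on its own median, 7 of the 10 genes were lower, against 29.3% of tested genes, and 1 was higher, against 28.2%. Either direction took 57.5% of tested genes in this fit. The 7 were not the same set: Exosc2 left it and Rbm7 entered it (−0.10, SE 0.04, edgeR adjusted p = 0.043). Exosc10 was no longer called (0.08, edgeR adjusted p = 0.055), while Zfc3h1 was (0.23, edgeR adjusted p = 0.0041). Exosc3 changed by −0.32 in this fit, Dis3 by −0.17, Skiv2l2 by −0.17, Mphosph6 by −0.19 and C1d by −0.17. The medians used as centres came from these same libraries. With DESeq2, 6 of the 10 genes were lower, against 27.9% of tested genes, and 1 higher, against 26.4%. Without Rn45s, the ribosomal RNA precursor gene, 7 were lower and 1 higher, against 30.5% and 31%, and with no count filter 7 and 1, against 23.8% and 21.8%.

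**Figure D3:**
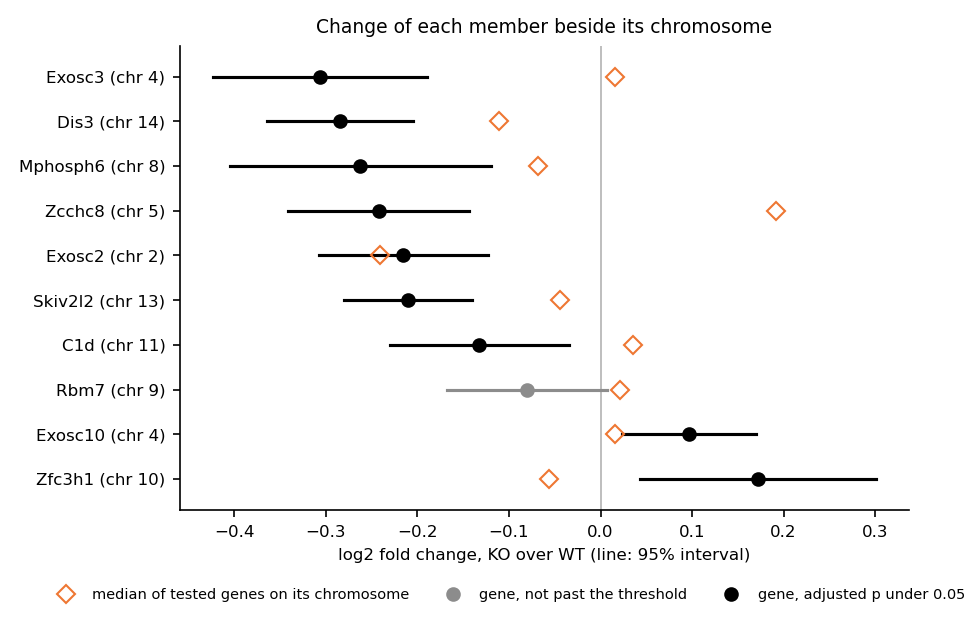
Log2 fold change of each gene, knockout over wild type, with its 95% interval (points and lines; black for genes past the threshold, grey for Rbm7), beside the median log2 fold change of the tested genes on the same chromosome (open orange diamonds). Exosc2 lies at the median of chromosome 2, and Zcchc8 is lower while the median of chromosome 5 is 0.19.

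Levels between genes were compared per kilobase of exon, as RPKM, so the order of genes rests on the deposited exon lengths. In wild type Skiv2l2 led with 33.3 ± 0.3 RPKM, followed by Exosc2 at 31.7 ± 0.8, Exosc10 at 31.2 ± 0.6, Rbm7 at 30.8 ± 1.4 and Exosc3 at 29.9 ± 1.9. The last 4 of these could not be ordered, since each overlapped the next. Dis3 was at 23.5 ± 1.3 RPKM, apart from its neighbours, Mphosph6 at 17.9 ± 1.1 overlapped C1d at 17.2 ± 0.4, and Zcchc8 at 10.1 ± 0.4 overlapped Zfc3h1 at 9.03 ± 1.05. In the knockout Exosc10 led with 33.3 ± 1.1 RPKM, above Rbm7 at 29.1 ± 0.7 and Skiv2l2 at 28.8 ± 0.5, which overlapped. Exosc2 followed at 27.3 ± 0.6, Exosc3 at 24.2 ± 0.4 and Dis3 at 19.3 ± 0.6, each apart from the next. C1d at 15.7 ± 1.4 overlapped Mphosph6 at 14.9 ± 0.6. Zfc3h1 at 10.2 ± 0.3 lay above Zcchc8 at 8.56 ± 0.06, with no overlap. The helicase gene led the order in wild type and the EXOSC10 gene in the knockout.

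Among 44 other genes of RNA decay, all of them tested, 17 were lower and 5 higher, with a median of −0.05, where 31.2% and 30.3% of all tested genes were lower and higher. The other 7 subunits of the exosome core had a median of −0.01, and only Exosc6, a ring subunit, passed the threshold (27.2 ± 0.8 to 23.1 ± 1.0 CPM, edgeR adjusted p = 5.3e-04). Exosc8 and Exosc9 stood at log2 −0.002 and 0.02 on chromosome 3, and relative to their chromosome's median at −0.30 and −0.28. Relative to the chromosome medians, 4 of the 7 were called lower, against 29.3% of all tested genes.

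Of 16 other nuclear cofactors, 9 were lower and 1 higher (median −0.09), where 31.2% and 30.3% of all tested genes were lower and higher. Relative to the chromosome medians, 6 were lower and 2 higher, against 29.3% and 28.2%. Rbm26, which encodes a zinc-finger protein linked to PAXT, fell from 66.0 ± 4.3 to 47.3 ± 0.6 CPM (log2 −0.48, edgeR adjusted p = 3.3e-15), and Pabpn1, the nuclear poly(A) binding protein of PAXT, fell from 134.1 ± 2.1 to 114.0 ± 2.4 CPM (log2 −0.23, or −0.12 relative to its chromosome, adjusted p = 5.6e-09 before centring). Nvl, an ATPase of ribosome assembly that binds MTR4, fell by 0.22, and Zcchc7, the zinc-knuckle subunit of the TRAMP adaptor, by 0.28 on the log2 scale. Zc3h3, named after its value was seen as the single member higher, rose by 0.24 (edgeR adjusted p = 0.0077). Of the PAXT genes named so far, Zfc3h1 and Zc3h3 were higher while Rbm26 and Pabpn1 were lower. The Zfc3h1 call was lost in 6 of 14 alternative fits. Rbm27, of the same list as Rbm26, was also called lower (log2 −0.15, edgeR adjusted p = 5.0e-05). It was not called relative to its chromosome (−0.06, edgeR adjusted p = 0.099).

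Of the 9 cytoplasmic genes, 3 were higher and 3 lower, both near the shares of all tested genes (30.3% and 31.2%), with a median of 0.07. Dis3l, which encodes the cytoplasmic counterpart of DIS3, rose from 22.2 ± 1.2 to 32.8 ± 0.9 CPM (log2 0.57, SE 0.06, edgeR adjusted p = 2.5e-13), and Dis3l2, an exonuclease of uridylated RNA that works without the ring, rose by 0.43 (SE 0.09, adjusted p = 1.3e-05). Both were higher in every knockout library, opposite to Dis3. Hbs1l, a ribosome rescue gene, and Wdr61, a Ski complex subunit, fell by 0.24 and 0.29. Of 12 genes of 5′ to 3′ decay and decapping, 4 were lower, near the 31.2% of all tested genes, and 1 was higher (median −0.04). The nuclear exonuclease gene Xrn2 changed by −0.58, or −0.34 relative to chromosome 2, Pnrc2 fell by 0.36, Dxo by 0.33, and Dcp1b rose by 0.79 from a low level of 1.39 ± 0.17 CPM.

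Ribosome biogenesis genes, whose products include the machinery that feeds precursor RNA to the exosome, had 13 of 24 members lower, 0 higher and 11 not called, with a median of −0.11, where 31.2% and 30.3% of all tested genes were lower and higher. The unadjusted p was under 0.05 for 0 higher genes of this list, and DESeq2 called 0 higher and 12 lower, against 26.4% and 27.9% of all tested genes. Nop56 fell by 0.54, Utp20 by 0.26, Polr1a by 0.24 and Pes1 by 0.25 on the log2 scale. Relative to their chromosome medians, Nop56 changed by −0.30 and Polr1a by −0.14. Host genes of small nucleolar RNA, whose spliced transcripts are known as targets of nuclear decay and of nonsense-mediated decay, had 5 of 15 tested members higher, near the 30.3% of all tested genes, 2 lower and 8 not called (median 0.09). Snhg4 rose from 31.9 ± 0.6 to 53.0 ± 3.7 CPM (log2 0.73, edgeR adjusted p = 5.3e-21), Snhg8 rose by 0.49, or 0.19 relative to the median of chromosome 3, and Snhg3 rose by 0.36, while Snhg12 fell by 0.15. The part of these lists in the changes of the 10 genes was not tested.

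**Figure D4:**
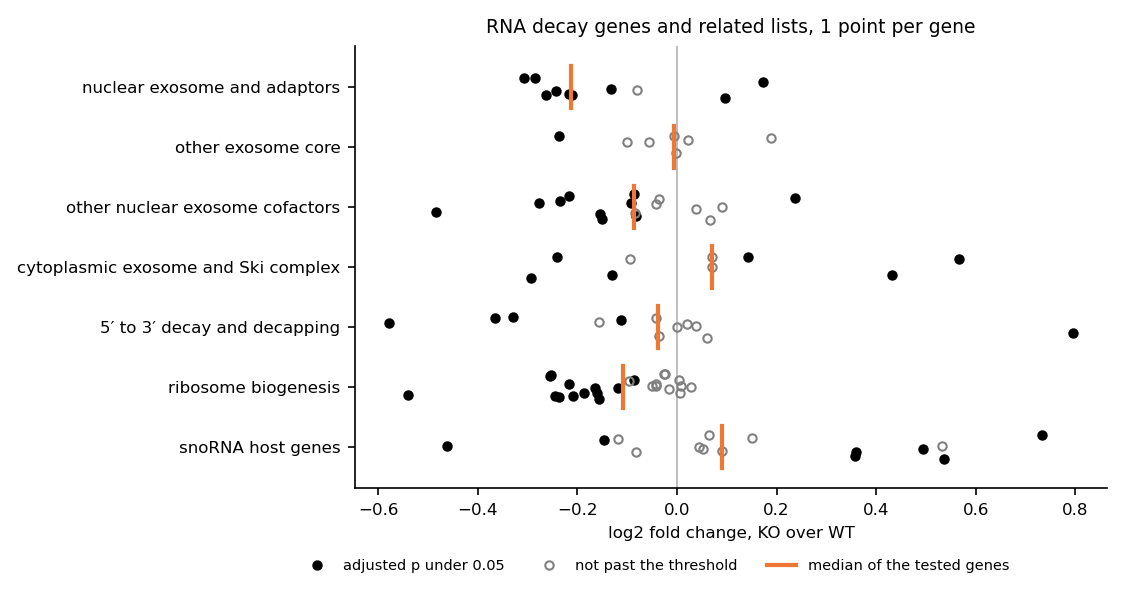
Log2 fold change, knockout over wild type, for each tested gene of the 10 nuclear exosome and adaptor genes and of 6 related lists; filled points passed an adjusted p under 0.05, open points did not, and orange bars are list medians. The median of the 10 genes is −0.21, that of the other core subunits −0.01 and that of small nucleolar RNA host genes 0.09. The values are not centred on chromosome medians.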

How the data were processed

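Total RNA depleted of ribosomal RNA was sequenced from 6 libraries with a stranded kit, per the labels' protocols. The authors deposited raw counts of reads for each gene, with exon lengths, and raw counts for downstream-of-gene regions that carry no names. STAR 2.6.1d, featureCounts 1.6.3 and the mm10 or GRCm38 build are named in the submitters' processing notes. The sources used here do not give the strand setting or how reads with several alignments were counted. Groups came from the sample titles.

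Genotypes were compared with the edgeR quasi-likelihood F test (version 4.0.16, R 4.3.3, robust, two-sided) after TMM scaling and filterByExpr (minimum count 10, total 15), with Benjamini-Hochberg adjustment over 12947 genes. SE is the size of the log2 fold change over the square root of F. RPKM is CPM per 1000 bases of the deposited exon length. Replicate pairs differed by more than sampling noise (chi-square per gene 2.05 to 6.50). Simulated counts at these depths had 48 to 50 genes changed at each size. Of those changed 1.1-, 1.2-, 1.5- and 2-fold, 14.3%, 66%, 89.6% and 88% were called, with 3 false calls over 12805 genes. In the data 61.4% of tested genes were called, so these rates and the false calls do not describe the fit used here.

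The 10 genes and the other lists were chosen with earlier results of these data known. Named were all members, Ube3d, up to 4 called genes of each list by smallest adjusted p, and neighbours whose exons overlap a member or that end within 5 kb upstream on its strand. Dhx29, Thap2, Gm5617, Zc3h3, Rbm27, Exosc8, Exosc9, the ratios and the promoter words were chosen after their values were seen. Of 19 small nucleolar RNA host genes, 16 were in the table. Alternatives were RLE size factors, 2 other count filters, DESeq2 1.42.0, limma-voom (limma 3.58.1), the replicate number as a block, chromosome medians as offsets, Rn45s left out and each library left out. Tables and plots came from Python 3.11.15 with pandas 2.3.3, SciPy 1.17.1 and matplotlib 3.10.9.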

Additional observations from a re-analysis of the deposited data

How the results depend on the processing

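Under 14 alternatives, Exosc3, Dis3, Skiv2l2, Zcchc8 and Mphosph6 stayed lower and past the threshold in each, with ranges of −0.36 to −0.27, −0.32 to −0.17, −0.23 to −0.17, −0.43 to −0.21 and −0.31 to −0.19. Exosc2 did so in 13 and reversed to 0.0248 when chromosomes were centred on their medians (edgeR adjusted p = 0.67), which by construction removes the shift of chromosome 2. No alternative was centred on the tested genes nearest to a member, whose median was −0.26 at Dis3. Both rises were fragile: the number of members called higher was 1 with DESeq2, with Rn45s left out, with centred chromosomes and with no count filter, and between 0 and 1 with a library left out, against 2. Exosc10 missed the threshold with no count filter (log2 0.08, edgeR adjusted p = 0.052), and Zfc3h1 with DESeq2 (0.18, adjusted p = 0.12) and, by a narrow margin, with Rn45s left out (0.18, edgeR adjusted p = 0.050016). C1d missed it with DESeq2 (−0.13, adjusted p = 0.061). The cause was not tested. The number called lower lay between 6 and 8. Numbers of other decay genes and of all genes called stayed within 1.5 times of the reported ones in every alternative. Downstream-of-gene counts as a percentage of gene counts were higher in the knockout by 0.53 percentage points, and by 0.48 to 0.57 with a library left out. Libraries with the same replicate number did not deviate together (correlations −0.05 to −0.03), and with the replicate block 7 members were lower, 2 higher and none of the 10 calls changed.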
